A study of Homo sapiens with 6 samples.

Results

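The granins are a family of acidic secretory proteins, and 6 of their genes (SCG2, VGF, SCG5, CHGA, CHGB and SCG3) were read by name from the 58733 named entries of a count table of MDA-MB-231 cells. SCG2 was picked because of its difference between the treatments in these same libraries, and the other 5 because they belong to its family. The differences of all 6 members are therefore given as descriptions, without a test. MDA-MB-231 is an established human line of triple-negative breast cancer. One group was kept for 72 h in DMSO, the solvent used as the vehicle, and the other for 72 h in 2 µM Azeliragon, a small-molecule antagonist of the receptor RAGE. Both groups grew in the same serum-containing medium. Each group holds 3 libraries of polyadenylated RNA, lettered a, b and c, and no label states whether they came from separate cultures, so p-values measure the spread between libraries, which may be technical.

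Granins are stored at high concentration in dense-core granules, the vesicles from which endocrine cells and neurons release hormones and neuropeptides on stimulation. They aggregate in the trans-Golgi network, where granules bud, and several are precursors that are cut at pairs of basic residues into smaller active peptides. CHGA and CHGB encode the chromogranins, CHGA being a standard marker of neuroendocrine tumours. SCG2 encodes secretogranin II, SCG3 a granin that ties granule contents to the membrane, SCG5 the chaperone 7B2 of the protease PCSK2, and VGF a precursor of neuropeptides.

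The part of the SCG2 RNA that codes for secretoneurin, a peptide cut from secretogranin II that is known to promote vessel growth, is shown first, since SCG2 is the member that differed most. It lies in exon 2 of 2 at chr2:223598635-223598745 on the minus strand (GRCh38, GENCODE 29). It codes for residues 182 to 214 of a predicted protein of 617 residues, which holds 9 sites of paired basic residues. Capitals mark the codons of the basic pairs on either side of the 33-residue peptide.
SCG2 coding stretch: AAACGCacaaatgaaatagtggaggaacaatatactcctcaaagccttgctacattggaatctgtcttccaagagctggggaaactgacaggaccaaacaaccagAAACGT

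Promoters in the RefSeq table (GRCh38.p14) were found for 4 of the 6 members, VGF, SCG5, CHGA and SCG3, and not for SCG2 and CHGB. Those of VGF and CHGA are shown because they share elements, although 1 gene was detected in these cells and the other was not. Each is the 250 bases before the annotated start, VGF at chr7:101165570-101165819 on the minus strand and CHGA at chr14:92922900-92923149 on the plus strand. Capitals mark TGACGTCA, the palindromic cAMP response element bound by CREB, CAGGTG on either strand, an E-box sequence that SNAIL can bind, and TATAA, the core of a TATA box.
VGF promoter: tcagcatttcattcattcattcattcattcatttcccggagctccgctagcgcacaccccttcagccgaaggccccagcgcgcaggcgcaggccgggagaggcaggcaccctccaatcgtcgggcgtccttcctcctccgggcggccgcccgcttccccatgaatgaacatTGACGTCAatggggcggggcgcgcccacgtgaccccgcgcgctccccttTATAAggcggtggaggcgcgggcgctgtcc
CHGA promoter: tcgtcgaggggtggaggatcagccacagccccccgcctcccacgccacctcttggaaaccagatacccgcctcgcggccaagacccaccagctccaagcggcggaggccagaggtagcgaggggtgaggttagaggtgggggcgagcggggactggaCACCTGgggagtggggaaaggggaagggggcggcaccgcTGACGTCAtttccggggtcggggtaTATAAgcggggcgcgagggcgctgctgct

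The cAMP response element began 79 bases before the start of VGF and 54 bases before that of CHGA, and it was absent from the windows of SCG5 and SCG3. Of 35116 promoter windows of the same length, 1.65% held it, searched on both strands. TATAA, searched on the gene's strand only, began 30 bases before the start of VGF and 29 before that of CHGA, and 13.6% of windows held it. CAGGTG occurred in CHGA (93 bases before the start) and SCG5 (64 bases before) and in 17.5% of windows, both strands searched. TGANTCA, the AP-1 site, occurred in none of the 4 members and in 6.57% of windows, both strands searched. These are matches of letters, not measured binding.

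Library totals lay between 41455979 and 44313584 counts, so that 1 read was worth 0.0221 to 0.0241 CPM (counts relative to the TMM-scaled library total) and the limit of 3 counts 0.0664 to 0.0723 CPM. Library DMSO a stood apart on the first principal component, where its score was -0.23 against 30.1 for DMSO b, 33.7 for DMSO c and -23.0 to -19.0 for the Azeliragon group. With all libraries 6.27% of the 16081 genes tested passed the threshold of an edgeR adjusted p under 0.05, 3.53% lower and 2.75% higher with Azeliragon. Without DMSO a 23.7% of 16508 genes passed, and leaving out 1 of the other 5 libraries gave 2.68% to 4.94%. Counts of list members without a library are to be read against these shares. All 9 MDA-MB-231 line markers were tested, with VIM the highest at 1934 CPM on average, although SPARC stood at only 0.47 CPM. AXL, a receptor tyrosine kinase, was the 1 line marker called (11.1%) and rose 1.20-fold (edgeR adjusted p = 0.0297), a call lost when any library except DMSO a was left out (up to 0.164). VIM (log2 fold change -0.15) and the luminal keratin KRT8 (-0.12) did not pass, and passed without DMSO a (-0.25 and -0.18; edgeR adjusted p = 8.35e-05 and 0.00356). Of 10 luminal markers 7 had over 3 reads in every library. The list summed to 1575 to 1825 CPM in DMSO and 1542 to 1615 with Azeliragon. Among the rest, PGR had 0 reads and CDH1 had 1.

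Of the 6 granin genes, 3 were detected, SCG2, VGF and SCG5, each with over 3 reads in all 6 libraries. The same 3 were the members that passed the filter on low counts. SCG3 had 0 reads in all 6 libraries, which allows a level of up to 0.0723 CPM for counting error alone. CHGA had 0, 1 and 3 reads in DMSO a, b and c and 3, 0 and 0 in Azeliragon a, b and c. CHGB had 3, 2 and 0 reads in DMSO and 1, 0 and 0 with Azeliragon. No library exceeded 3 reads of either chromogranin, so a difference between conditions was not detectable at this depth and no fold is given.

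SCG2, which lies on the minus strand of chromosome 2 from 223596940 to 223602503, had the highest level per kilobase of exon of the granin genes in the vehicle-treated cells. It was read 478, 600 and 554 times in DMSO a, b and c, and 206, 217 and 163 times in Azeliragon a, b and c. As CPM these were 10.6, 13.9 and 12.8 in DMSO against 4.79, 4.97 and 3.93 with Azeliragon. All 3 Azeliragon libraries were below all 3 DMSO libraries, and the lowest DMSO library was DMSO a. The mean was 12.4 ± 1.7 CPM in DMSO and 4.56 ± 0.56 with Azeliragon (SD of n = 3 per group). This is a 2.72-fold lower level (log2 fold change -1.44, SE 0.14, 95% interval -1.74 to -1.14, edgeR). Between single libraries the ratio of DMSO to Azeliragon ranged from 2.13 to 3.54.

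The range of the SCG2 difference over the settings is given as a description. It is no support for the difference, because SCG2 was chosen from this contrast in these same libraries. Its log2 fold change was farthest from 0 without DMSO a (-1.55) and nearest to 0 without Azeliragon c (-1.35). Under the other scalings, filters and tests it lay between -1.45 and -1.44. The Azeliragon libraries held 26.4% of the 2218 SCG2 reads (exact Clopper-Pearson 95% interval 24.6% to 28.3%), where 49.3% corresponds to equal levels. Such intervals cover counting error only: the reads carry no molecular identifiers and may repeat a molecule. No other gene of the annotation overlaps SCG2, so no overlapping gene could share its reads.

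VGF, which lies on the minus strand of chromosome 7 from 101162509 to 101165593, had fewer reads than SCG2 in every DMSO library and more in every Azeliragon library, and it had the smallest log2 fold change of the 3 detected. Its reads numbered 328, 394 and 401 in DMSO a, b and c and 281, 307 and 302 with Azeliragon a, b and c. The levels were 7.26, 9.12 and 9.29 CPM in DMSO and 6.53, 7.03 and 7.28 CPM with Azeliragon. DMSO a lay within the range of the Azeliragon libraries, so the groups overlapped. The means were 8.56 ± 1.13 and 6.95 ± 0.38 CPM (SD of n = 3 per group), with a log2 fold change of -0.30 (SE 0.13, 95% interval -0.57 to -0.03). Without DMSO a its log2 fold change was -0.41. Azeliragon libraries held 44.2% of its 2013 reads (exact Clopper-Pearson 95% interval 42.0% to 46.4%). This interval covers counting error only and leaves out the spread between libraries.

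SCG5, which lies on the plus strand of chromosome 15 from 32641676 to 32697098, had the fewest reads of the 3 and the widest interval. It had 66, 39 and 52 reads in DMSO a, b and c and 27, 36 and 37 with Azeliragon a, b and c. The levels of 1.46, 0.903 and 1.20 CPM in DMSO and 0.628, 0.825 and 0.892 with Azeliragon did not overlap, but DMSO b lay above Azeliragon c by less than 1 read is worth. The log2 fold change was -0.61 (SE 0.30, 95% interval -1.27 to 0.06). It was -0.43 without DMSO a and -0.77 without DMSO b. An antisense gene, AC123768.1, lies within SCG5 and was listed with 1 to 9 reads per library. How reads were assigned by strand is not given in the sources used here, so its share of the SCG5 reads is uncertain.

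**Figure D1:**
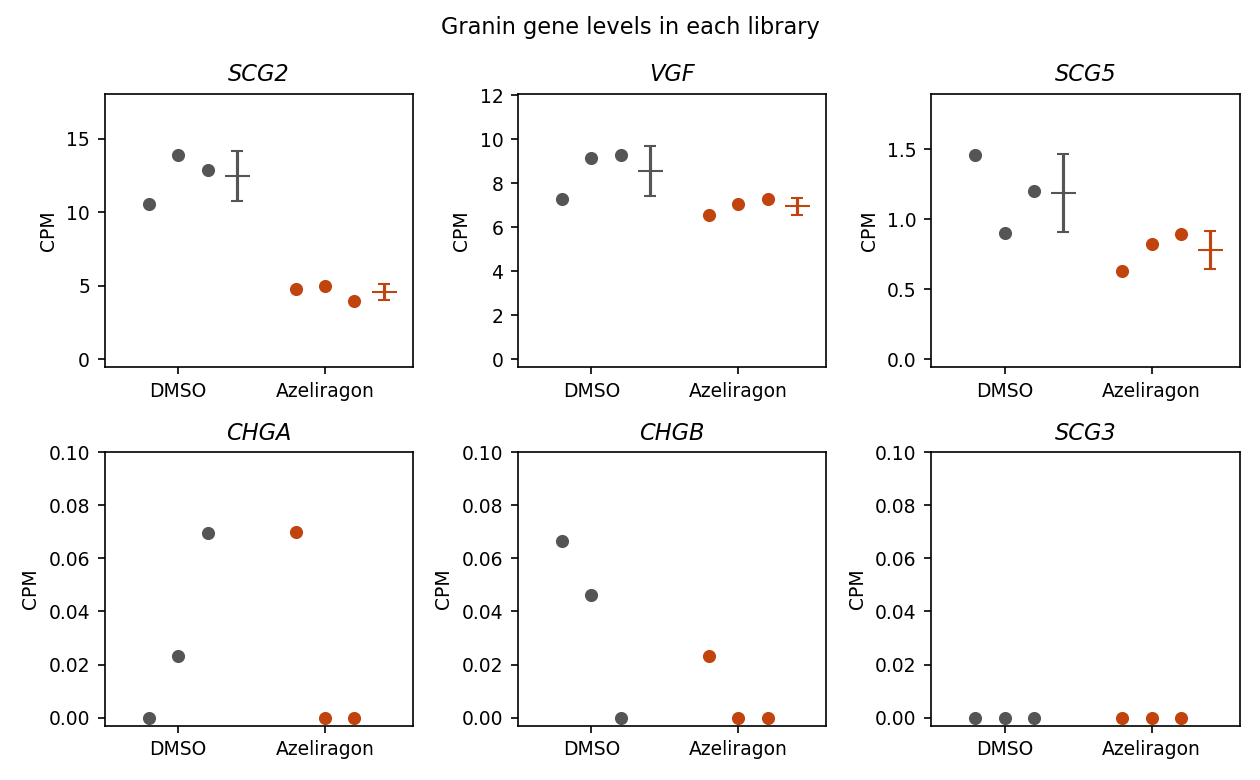
Level of each granin gene in CPM (vertical axes, scaled per gene) in the 3 DMSO and 3 Azeliragon libraries (points, in the order a, b, c), with the mean and SD beside them for the 3 genes detected. SCG2 separates the groups by a wide gap, VGF overlaps, and CHGA, CHGB and SCG3 lie at or near 0.

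The groups did not overlap for SCG2 and SCG5, with Azeliragon lower in both, where this held for 13.2% of all genes tested. Nothing is read from this count, because SCG2 was chosen from this contrast. Put side by side, the 3 detected genes had log2 fold changes of -1.44, -0.61 and -0.30, all below the median of -0.004 over all genes tested. The 95% interval of SCG5 reached into that of SCG2 and included 0, and that of VGF did not reach into that of SCG2. As SCG2 was chosen for its difference here, these positions are descriptions and do not test 1 gene against another.

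Per kilobase of exon the order of the granin genes changed between the conditions. In DMSO, SCG2 stood at 4.57 ± 0.62 CPM per kb, VGF at 3.16 ± 0.42 and SCG5 at 0.542 ± 0.127 (SD of n = 3 per group). With Azeliragon, VGF was first at 2.57 ± 0.14 CPM per kb, followed by SCG2 at 1.68 ± 0.21 and SCG5 at 0.356 ± 0.063. Neighbours in each order did not overlap across the libraries of a condition. Within single libraries the level per kb of SCG2 relative to VGF was 1.45, 1.51 and 1.37 in DMSO a, b and c, and 0.729, 0.703 and 0.537 with Azeliragon a, b and c. All 3 DMSO libraries thus had more SCG2 than VGF RNA per kb, and all 3 Azeliragon libraries less. As SCG2 was chosen for its difference in these libraries, this change of order is a description only. In bulk RNA, fewer cells that express SCG2 and less SCG2 RNA per cell cannot be told apart.

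**Figure D2:**
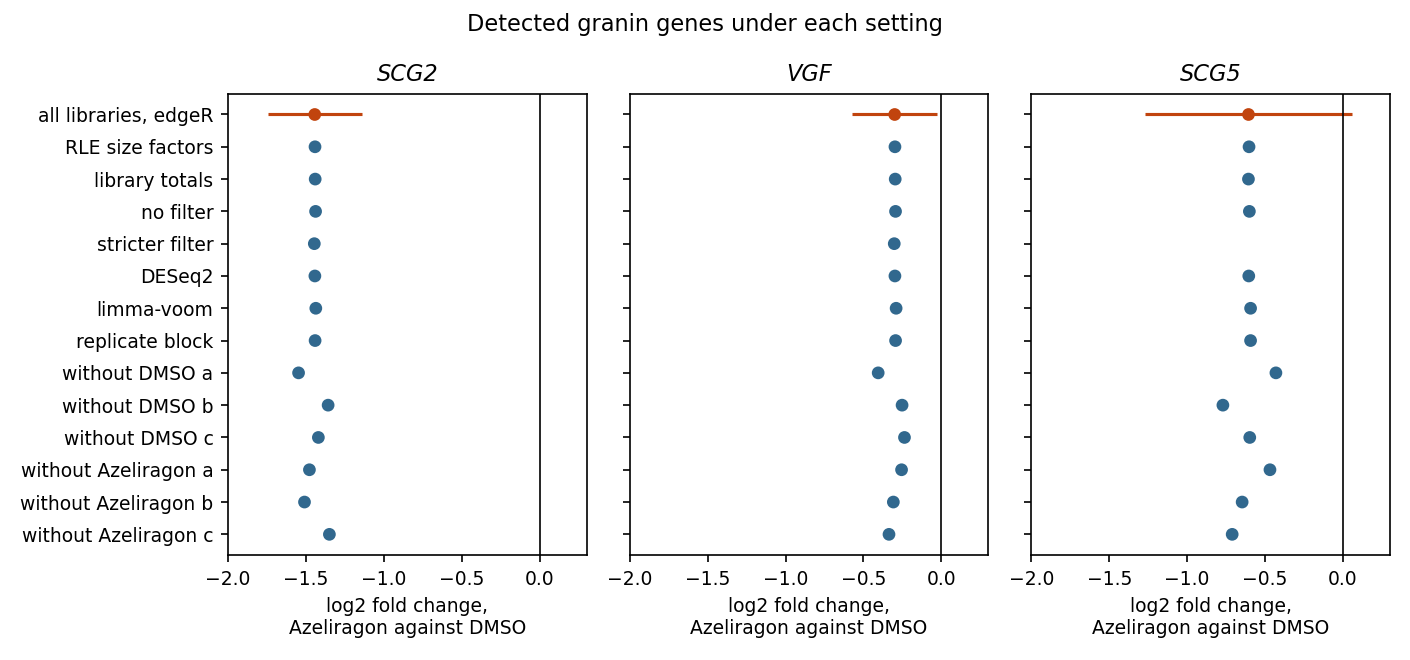
Log2 fold change of SCG2, VGF and SCG5 (horizontal axes, Azeliragon against DMSO) with all libraries in edgeR (red, with its 95% interval) and under each other scaling, filter or test, or with 1 library left out (blue). SCG2 stays between -1.55 and -1.35, whereas VGF ranges from -0.41 to -0.24 and SCG5 from -0.77 to -0.43. SCG5 has no value under the stricter filter.

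Granins that are prohormones need proteases and trimming enzymes, and here both convertases of dense-core granules were at or near 0 reads. PCSK1 and PCSK2 had at most 2 reads in any library, and PCSK2 is the partner of the SCG5 product. PCSK1N, the granin-like inhibitor of PCSK1, had 0 to 19 reads per library and was not tested. The ubiquitous convertase FURIN had a mean of 213 ± 15 CPM in vehicle and 194 ± 2 under Azeliragon (log2 fold change -0.14; edgeR adjusted p = 0.273). PAM, which amidates peptides, and CPD, a carboxypeptidase of the Golgi, did not pass either (log2 fold changes -0.12 and 0.12; edgeR adjusted p = 0.321 and 0.563). CPD passed without DMSO a (log2 fold change 0.26; edgeR adjusted p = 0.0111).

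CPE, the carboxypeptidase that removes the basic residues left by the convertases and that also binds cargo for sorting into granules, fell 1.63-fold. Its levels were 14.5, 14.9 and 13.3 CPM in DMSO a, b and c and 9.16, 8.68 and 8.31 with Azeliragon a, b and c, without overlap (log2 fold change -0.71, SE 0.10; edgeR adjusted p = 0.0011). The edgeR adjusted p of CPE was at most 0.0106 in any set of 5 libraries. CPE overlaps a pseudogene on the opposite strand, HADHAP1. It was the 1 member called of 11 tested among 16 genes of prohormone cleavage and trimming (9.09%, where 6.27% of all genes tested were called), and the median log2 fold change of the list was 0.11. Without DMSO a 4 members passed (36.4%, where 23.7% of all genes did) and without DMSO c 2 (18.2%, where 4.94% of all genes did).

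Of 24 genes of dense-core granule formation 19 were tested, of which 2 fell, 1 rose and 16 did not pass (15.8% called, where 6.27% of all genes tested were, median log2 fold change -0.02). ICA1, an arfaptin-like protein of budding secretory granules, fell 1.48-fold, with means of 13.0 ± 2.2 CPM in DMSO and 8.77 ± 0.42 under Azeliragon (SD of n = 3 per group; edgeR adjusted p = 0.0211). VMP1, a membrane protein of the endoplasmic reticulum, fell 1.21-fold and HID1, a Golgi protein needed for granule biogenesis, rose 1.39-fold, from 5.27 ± 0.67 to 7.32 ± 0.26 CPM (SD of n = 3 per group; edgeR adjusted p = 0.0271 and 0.0493). None of these 3 calls held in every set of 5 libraries. Those of ICA1 and HID1 were lost when DMSO b or 1 of the Azeliragon libraries was left out (edgeR adjusted p up to 0.129 and 0.179), and that of VMP1 when any library except DMSO a was left out (up to 0.172). The HID1 call was also lost with RLE scaling, limma-voom and the replicate block (adjusted p up to 0.0729). Without DMSO a 6 members passed (31.6%, where 23.7% of all genes did), and 0 passed when DMSO b or 1 of the Azeliragon libraries was left out. SDF4 (log2 fold change -0.11), ARFIP2 (-0.10) and VPS51 (0.02), members with many reads, did not pass. SDF4 and ARFIP2 passed without DMSO a (log2 fold changes -0.15 and -0.17; edgeR adjusted p = 0.0288 and 0.0252). All 3 called genes overlap a gene on the opposite strand, so their counts are uncertain.

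Of 43 genes of regulated granule exocytosis 30 were tested, of which 1 rose, 1 fell and 28 did not pass. The share called was 6.67%, near the 6.27% of all genes tested, and the median log2 fold change was -0.15. STX3, a syntaxin of the plasma membrane, rose 1.44-fold, with means of 42.7 ± 1.4 CPM in DMSO and 61.7 ± 4.3 under Azeliragon (SD of n = 3 per group; edgeR adjusted p = 0.0012, at most 0.0147 with a library left out). STX1A, the syntaxin of neuronal and endocrine exocytosis, fell 1.25-fold from 58.0 ± 4.3 to 46.6 ± 3.9 CPM (edgeR adjusted p = 0.0455). The STX1A call was lost when any library except DMSO a was left out (edgeR adjusted p up to 0.233) and with RLE scaling (0.0507). Both syntaxin genes overlap genes on the opposite strand. UNC13D, which primes granules in blood cells, had the most reads of the list and did not pass (log2 fold change 0.06), nor did VAMP3 (-0.13). VAMP3 passed without DMSO a (log2 fold change -0.15; edgeR adjusted p = 0.0496). CADPS, the priming factor of dense-core granules in neuroendocrine cells, had at most 3 reads in any library. Without DMSO a 12 members passed (40.0%, where 23.7% of all genes did), and without any other single library 1 passed.

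**Figure D3:**
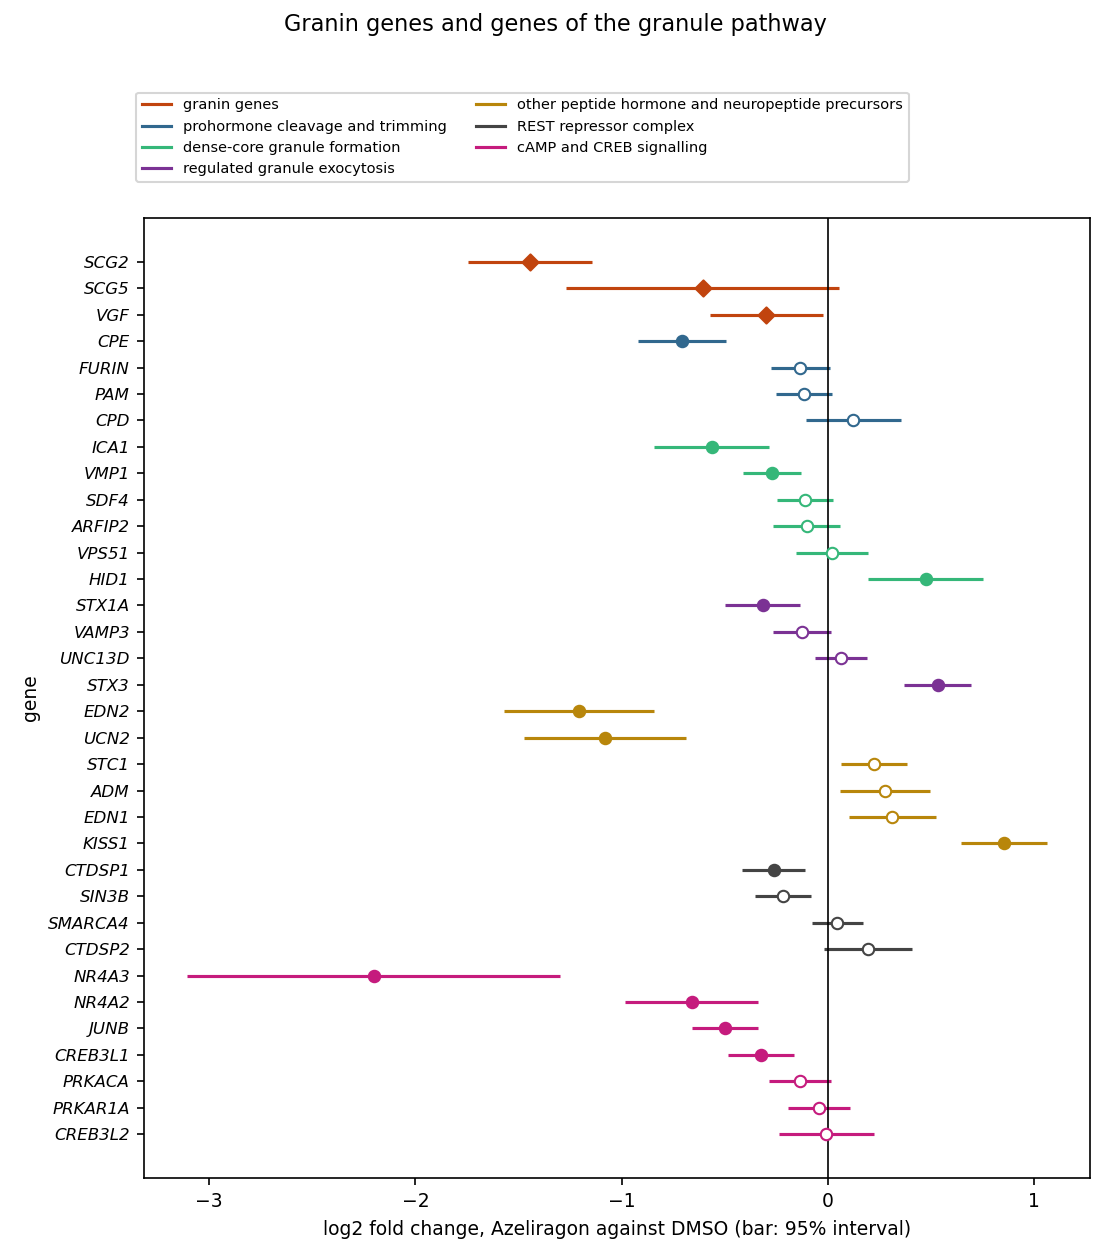
Log2 fold change (horizontal axis, Azeliragon against DMSO; bars are 95% intervals of the edgeR fit) of the 3 detected granin genes and the named genes of 6 lists, with filled circles for genes of the lists past the threshold and diamonds for the granin genes. Of the called list genes, CPE, ICA1, VMP1, STX1A, EDN2, UCN2, CTDSP1, NR4A3, NR4A2, JUNB and CREB3L1 lie to the left of 0 with SCG2. HID1, STX3 and KISS1 lie to the right.

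Other peptide precursors, the further cargo of such granules, moved in both directions. Of 49 genes 20 were tested, of which 2 fell, 1 rose and 17 did not pass, and 25 of the 49 had 0 reads in all libraries. The share called was 15.0%, where 6.27% of all genes tested were called, and the median log2 fold change was -0.10. EDN2, which encodes the vasoconstrictor endothelin 2, fell 2.31-fold, from 7.44, 7.46 and 6.09 CPM in DMSO a, b and c to 3.28, 3.46 and 2.34 with Azeliragon a, b and c (log2 fold change -1.21, SE 0.17; edgeR adjusted p = 0.0011). UCN2, the precursor of urocortin 2, fell 2.11-fold, with means of 4.17 ± 0.64 CPM in DMSO and 1.97 ± 0.20 under Azeliragon (SD of n = 3 per group; edgeR adjusted p = 0.00369), and it overlaps PFKFB4 on the same strand. KISS1, the kisspeptin precursor first described as a metastasis suppressor, rose 1.81-fold. Its levels were 25.7, 30.2 and 33.7 CPM in DMSO a, b and c and 52.9, 54.3 and 54.7 with Azeliragon a, b and c (edgeR adjusted p = 0.000215). The groups of these 3 genes did not overlap, where this held for 25.3% of all genes tested in either direction. Nothing more is read from this, because the 3 are the called members of the list. All 3 calls held with each library left out (edgeR adjusted p at most 0.0101, 0.0246 and 0.00404). STC1, ADM and EDN1 did not pass (log2 fold changes 0.22, 0.27 and 0.31). EDN1 passed with DESeq2, and both ADM and EDN1 passed without a filter (edgeR adjusted p = 0.0476 and 0.0428). Without DMSO a both STC1 and EDN1 passed (log2 fold changes 0.30 and 0.30; edgeR adjusted p = 0.000347 and 0.0259), and 5 members of the list did (25.0%, where 23.7% of all genes did).

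REST, a repressor that holds neuronal and granin genes silent outside the nervous system, was expressed at 14.4 ± 1.8 CPM in vehicle and 16.8 ± 1.9 under Azeliragon (SD of n = 3 per group). It did not pass (edgeR adjusted p = 0.323; log2 fold change 0.22 with a 95% interval of -0.04 to 0.47). All 18 genes of the REST complex were tested, of which 1 fell, none rose and 17 did not pass. The share called was 5.56%, near the 6.27% of all genes tested, and the median log2 fold change was 0.04. CTDSP1, a phosphatase recruited with REST, fell 1.20-fold (edgeR adjusted p = 0.0475). That call was lost when any library except DMSO a was left out (adjusted p up to 0.246) and with RLE scaling (0.0571). Without DMSO a 6 members passed (33.3%, where 23.7% of all genes did) and without any other single library 0. SMARCA4, SIN3B and CTDSP2 had log2 fold changes of 0.04, -0.22 and 0.19 and did not pass, SIN3B at edgeR adjusted p = 0.0624. SIN3B passed with DESeq2, and both SIN3B and CTDSP2 passed without DMSO a (log2 fold changes -0.17 and 0.33; edgeR adjusted p = 0.0098 and 6.14e-05). DESeq2 called 0 members of the list higher and 2 lower, and limma-voom called 0 higher and 1 lower. At an unadjusted p under 0.05, 0 members were higher and 3 lower in edgeR. The share of all genes at that unadjusted threshold is not given, so nothing is read from those counts.

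The cAMP pathway and CREB, which act through the element shown in the VGF and CHGA promoters, were represented by 38 genes. All were tested, of which 4 fell, none rose and 34 did not pass. The share called was 10.5%, where 6.27% of all genes tested were called, and the median log2 fold change was 0.03. NR4A3, an immediate-early nuclear receptor, fell 4.60-fold, from 61, 68 and 43 reads in DMSO a, b and c to 6, 12 and 18 with Azeliragon a, b and c (edgeR adjusted p = 0.0075). Its relative NR4A2 fell 1.58-fold, with means of 9.42 ± 1.67 CPM in DMSO and 5.95 ± 0.69 under Azeliragon (SD of n = 3 per group; edgeR adjusted p = 0.0196). JUNB, an AP-1 subunit, fell 1.41-fold and CREB3L1, a membrane-bound CREB relative that controls secretory pathway genes, 1.25-fold (edgeR adjusted p = 0.00154 and 0.0204). The calls of NR4A3 and JUNB held with each library left out (edgeR adjusted p at most 0.0469 and 0.0244). That of NR4A2 was lost without DMSO c, Azeliragon a or Azeliragon c (up to 0.111), and that of CREB3L1 when DMSO b or 1 of the Azeliragon libraries was left out (up to 0.146). JUNB overlaps HOOK2 on the opposite strand. The kinase subunits PRKACA and PRKAR1A did not pass (log2 fold changes -0.13 and -0.04), and PRKACA did without DMSO a (-0.19; edgeR adjusted p = 0.00635). CREB3L2 stood at -0.01 with all libraries, and passed the threshold at 0.15 when DMSO a was left out. Then 18 members of this list passed (47.4%, where 23.7% of all genes did), and 2 did without Azeliragon a (5.26%, where 2.68% of all genes did). DESeq2 called 0 members higher and 5 lower, and limma-voom called 0 higher and 5 lower. At an unadjusted p under 0.05, 7 members were higher and 6 lower in edgeR. The share of all genes at that unadjusted threshold is not given, so nothing is read from those counts.

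**Figure D4:**
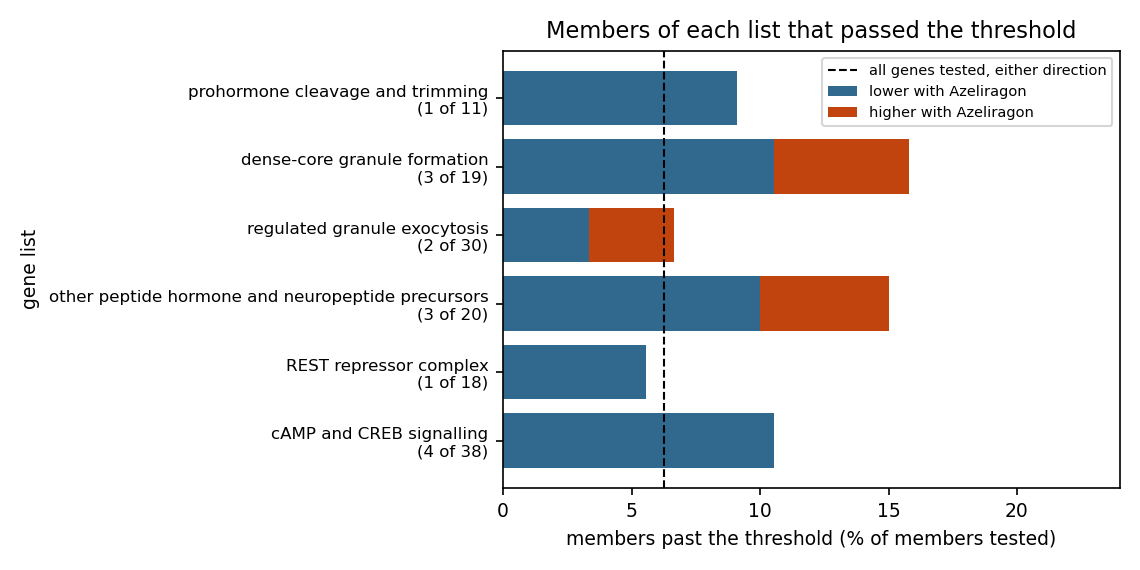
Share of the tested members of each list (horizontal axis, %) that passed the threshold, lower (blue) or higher (red) with Azeliragon, with the share of all genes tested as a dashed line at 6.27%. The bars rest on 1 to 4 genes each.

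Most neuroendocrine identity genes were at or near 0 reads in the libraries where SCG2, VGF and SCG5 were read. Of 21 neuroendocrine markers 8 had 0 reads in all libraries, among them INSM1, and 5 had over 3 reads in every library. Their summed level was 131 to 140 CPM in DMSO and 130 to 137 with Azeliragon, nearly all of it from ENO2, an enolase that is not restricted to neurons (log2 fold change -0.07; edgeR adjusted p = 0.564). Of the 5 tested, edgeR called 0, DESeq2 called 1, which was higher with Azeliragon, and limma-voom called 0. In edgeR 1 was higher at an unadjusted p under 0.05, and 1 was called without DMSO a. SYT1, also a member of the exocytosis list, was at 5.98 ± 1.42 CPM in vehicle and 8.75 ± 0.62 under Azeliragon (SD of n = 3 per group; log2 fold change 0.55; edgeR adjusted p = 0.072). SYP, the vesicle protein synaptophysin, was low, 1.11 ± 0.30 CPM in vehicle and 0.754 ± 0.200 under Azeliragon (SD of n = 3 per group; edgeR adjusted p = 0.373). Of 6 leukocyte markers 1, CD14, had over 3 reads in every library, PTPRC had 3 reads in all, and the list summed to 1.15 to 1.55 CPM in DMSO and 0.771 to 1.05 with Azeliragon. Of 6 endothelial markers 2 had over 3 reads in every library, and the list summed to 3.31 to 4.63 CPM in DMSO and 6.10 to 6.36 with Azeliragon. KDR, a receptor for vascular growth factors, made up most of that and rose 1.63-fold (edgeR adjusted p = 0.0324), a call lost when any library except DMSO a was left out (up to 0.124). VWF, a protein of endothelial storage granules, had 2, 3 and 9 reads in DMSO a, b and c and 15, 11 and 28 with Azeliragon a, b and c, and did not pass (edgeR adjusted p = 0.103). The part of these low marker levels in the granin values was not tested.

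Of the 4 genes that flank SCG2 and VGF, 3 were tested and did not pass the threshold with all libraries. KCNE4, 398.5 kb from SCG2 at lower coordinates, had 0 to 10 reads per library and was not tested. AP1S3, 149.2 kb away on the other side, had 4.18 ± 0.82 CPM in the vehicle and 4.61 ± 0.98 with Azeliragon (SD of n = 3 per group; log2 fold change 0.14, SE 0.19; edgeR adjusted p = 0.734). AP1S1, which ends 0.9 kb from VGF, was at 200 ± 22 and 182 ± 3 CPM (log2 fold change -0.13; edgeR adjusted p = 0.363), and it passed without DMSO a (-0.21; edgeR adjusted p = 0.00645). NAT16, 4.9 kb on the other side of VGF, was at 0.705 ± 0.101 and 0.482 ± 0.135 CPM and did not pass (edgeR adjusted p = 0.449). Whether SCG2 differs from these neighbours in its response was not tested.

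Across the 6 libraries, the genes whose log2 CPM followed that of SCG2 most closely among 10186 genes averaging 5 CPM or more were BORCS7, RBM5, MYH16, FOXP4, KAZALD1 and VPS45, with Pearson r between 0.994 and 0.998. Each was lower in all 3 Azeliragon libraries than in any DMSO library, where this held for 13.2% of all genes tested. Nothing is read from this, because the 6 were picked for following SCG2. They fell by less than SCG2, from 1.08-fold for RBM5 to 1.77-fold for MYH16. RBM5 and FOXP4 did not pass (edgeR adjusted p = 0.322 and 0.106), and FOXP4 passed without DMSO a (0.0113). BORCS7, MYH16, KAZALD1 and VPS45 passed, but only the MYH16 call held with each library left out. BORCS7, for example, went from 8.83, 9.49 and 9.57 CPM in DMSO a, b and c to 6.49, 6.71 and 6.05 with Azeliragon a, b and c. The libraries share their treatment and depth, so r mostly describes the step between the groups, and no p is given. The choice of genes was not stable, since 1 to 3 of the 6 stayed among the first 6 when a library was left out, and by rank correlation 52 genes tied at the highest value. All but KAZALD1 overlap other genes. By the same measure r with SCG2 was 0.815 for VGF and 0.635 for SCG5.

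**Figure D5:**
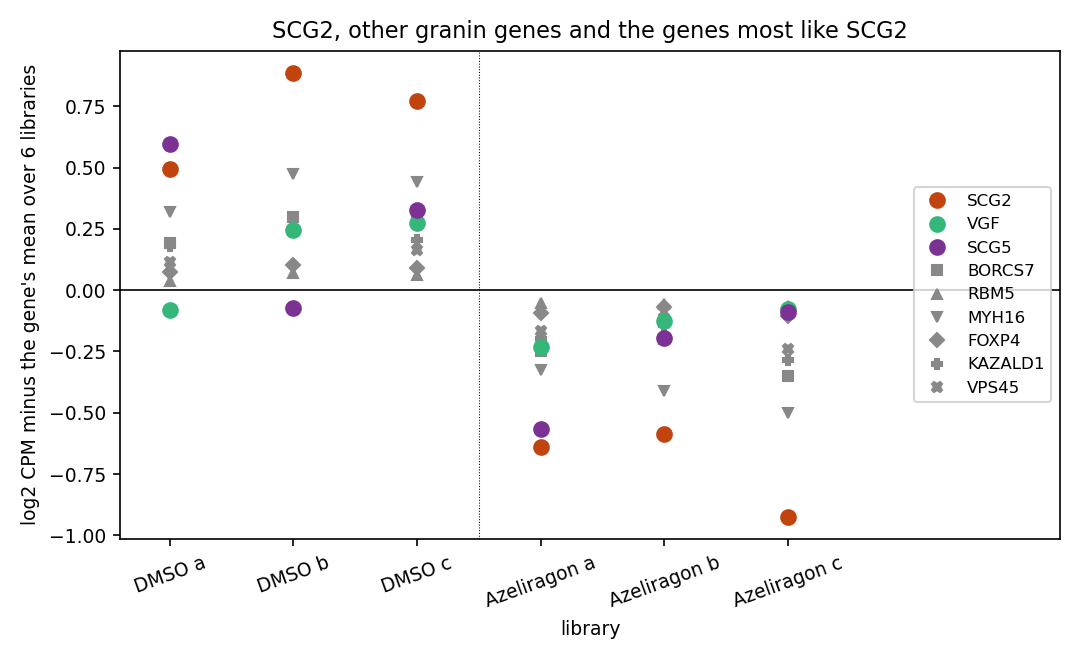
Log2 CPM of each gene minus its own mean over the 6 libraries (vertical axis), by library, for SCG2, VGF and SCG5 (coloured circles) and the 6 genes most like SCG2 (grey). SCG2 has the widest step between DMSO and Azeliragon, and in DMSO b SCG5 lies below its mean.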

How the data were processed

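The authors deposited raw counts per gene for the 6 libraries, 3 for each treatment. The submitters' processing notes name the build GRCh38 and the tools featureCounts 1.5.0-p3, STAR 2.6.1d and limma, without their roles. For the annotation, the strand setting and multiply mapped reads, the choice is not given in the sources used here. Of 58735 entries, 58722 matched GENCODE 29 names, and 2 with numeric names were left out.

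Genes were kept by filterByExpr, scaled by TMM and compared with glmQLFit and glmQLFTest of edgeR 4.0.16 with treatment as the only term. P-values were adjusted by Benjamini-Hochberg across the 16081 genes kept, with a threshold of 0.05. Levels per kb use the union of exons. The fit was tested on simulated counts in which no library stood apart as DMSO a does. That test therefore does not show how DMSO a affects the calls. No 2 libraries of a condition matched within sampling noise (lowest chi-square per degree of freedom 4.57). R 4.3.3, limma 3.58.1, DESeq2 1.42.0, Python 3.11.15 and matplotlib 3.10.9 were used.

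The members and the gene lists were chosen with earlier results of these data known. Named genes were the granins, up to 6 called and the 3 most abundant uncalled members of each list (1 for marker lists), the 6 genes most like SCG2, and the neighbours of granin genes averaging 1 CPM or more. SPARC, PGR, CDH1, PCSK1, PCSK2, PCSK1N, CADPS, REST, SYP, SYT1, INSM1, PTPRC and AC123768.1 were named after their values were seen. A gene that this rule names is not reported here but stays in the counts of its list. Alternatives were RLE factors, library totals, no filter, limma-voom, DESeq2, a block for the replicate letter, a stricter filter (a mean of 50 counts, with 3 libraries at 1 CPM or more), and each library left out.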

Additional observations from a re-analysis of the deposited data

How the results depend on the processing

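The log2 fold changes of SCG2, VGF and SCG5 kept their sign under every setting that gave a value, between -1.55 and -1.35, -0.41 and -0.24, and -0.77 and -0.43, and 3 granins were detected at a limit of 10 counts as well as of 3. SCG5 did not pass the stricter filter. Counts of called genes depended more on the setting, and the cause was not tested. With a library left out, 2.68% to 23.7% of all genes passed. For RLE factors, no filter, DESeq2 and limma-voom the share of all genes called is not given, so nothing is read from the list counts. Over all genes, 442 were higher and 567 lower. Without a filter 898 were higher, with DESeq2 690, and with a library left out 154 to 2137 were higher and 270 to 1779 lower, both highest without DMSO a. Among prohormone cleavage genes 2 passed with RLE factors, without a filter, with DESeq2 and with limma-voom, in place of 1, and 1 to 4 with a library left out. Among exocytosis genes 1 passed with RLE factors and 4 with DESeq2, in place of 2, and 1 to 12 with a library left out. The REST list had 0 calls with RLE factors and 2 with DESeq2, in place of 1, and 0 to 6 with a library left out. The cAMP list had 11 without a filter, in place of 4, and 2 to 18 with a library left out. The peptide precursors had 5 without a filter, in place of 3, and 3 to 5 with a library left out, and granule formation had 0 to 6. The log2 fold change of CREB3L2 turned from -0.01 to 0.15 without DMSO a, and lay between -0.091 and 0.153 with a library left out. Of the 6 genes most like SCG2, 3 were at the highest rank correlation, and 1 to 3 stayed among the first 6 with a library left out, a setting chosen after seeing the data.

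The replicate letters do not pair the libraries by the labels. Same-lettered libraries had correlations of deviations of 0.027, 0.022 and -0.044, and 2 of 6 libraries correlated best with their own letter. With the replicate block 416 genes were higher and 492 lower, and the log2 fold change of SCG2 was -1.44. Depth limits CHGA, CHGB and SCG3, which had at most 3 reads in a library.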
